A study of Mus musculus with 3 samples.

Results

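The proteasome genes of mouse dendritic cells (DCs) were taken as all genes whose symbol is Psma, Psmb, Psmc, Psmd, Psme, Psmf or Psmg followed by a number and that have a probe set naming no other gene. This gave 47 of the 17886 genes on the arrays. They comprise 8 genes for alpha subunits of the 20S core and 8 for its beta subunits other than the immune ones. The rest are 4 immune genes (Psmb8, Psmb9, Psmb10 and Psme1), 20 genes named for the 19S cap, and 7 further regulators and assembly chaperones. Psme2, the partner of Psme1 and the last of the 5 immune genes considered, has a probe set that also names a second gene. It was therefore not analysed here.

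The cells were wild-type marrow cultures grown in granulocyte-macrophage colony-stimulating factor for 5 days, then separated in a cell sorter by surface PDL2, which binds the inhibitory receptor PD-1. The 3 groups were PDL2-negative cells without treatment, PDL2-negative cells given lipopolysaccharide at 100 ng/ml (LPS, a bacterial product sensed by a Toll-like receptor), and untreated PDL2-positive cells. All groups had the same culture protocol and were sorted by PDL2, and LPS was given after the sort. The labels do not say whether the arrays came from 1 culture. Strain, age, the number of animals per culture and the length of the LPS exposure are not given in the sources used here. Each group had 1 array, so groups could not be tested against each other, and only sizes are given.

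The proteasome degrades proteins tagged with ubiquitin. Its 20S core is a barrel of alpha rings around beta rings that hold the proteolytic sites, and the 19S cap recognises, unfolds and feeds in the substrates. Interferons induce the catalytic subunits encoded by Psmb8, Psmb9 and Psmb10, which take the places of those encoded by Psmb5, Psmb6 and Psmb7. The resulting immunoproteasome favours peptides that fit MHC class I molecules. Psme1 and Psme2 encode the PA28 alpha and beta chains, which form an interferon-inducible cap. DCs are known for a high content of immune subunits.

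Values are log2 signals after quantile normalization of the deposited log2 values. The floor, below which a value was not read, was the median of all normalized values, 5.58. Calls of higher or lower mean a difference of 2-fold or more, which is 1 on the log2 scale. The only error measure is technical, how far the log2 differences of a gene's 2 brightest probe sets lie apart. It was 0.29 (robust SD per probe set, over 4231 genes) for LPS against no treatment, 0.21 (4251 genes) for PDL2-positive against PDL2-negative cells and 0.31 (4143 genes) for PDL2-positive against LPS-treated cells. Variation between cultures is not covered by it.

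The arrays had similar deposited medians, from 5.56 to 5.59, and the sort marker gene Pdcd1lg2 followed the sort, at 8.40, 9.44 and 11.73 in PDL2-negative untreated, LPS-treated and PDL2-positive cells. All 6 DC markers were above the floor on every array. In PDL2-positive against PDL2-negative untreated cells 2 of them were called higher (10.1% of all genes were), Flt3 (3.71-fold) and Zbtb46 (5.15-fold). Called lower was 1, Itgax (3.18-fold), against 13.0% of all genes. The 2 B cell and 2 erythroid markers with a probe set were below the floor on every array. Of 3 T and NK markers with a probe set, Cd3e alone was above it, at 6.17, 6.29 and 6.19 in the order above. With the untreated PDL2-negative array as reference, all 6 macrophage markers were called lower on the PDL2-positive array, against 13.0% of all genes. Their summed log2 level was 70.5, 69.2 and 43.3 in the order above. Of 4 monocyte markers 3 had a probe set (Ccr2, Vcan and Fn1), and all 3 were called lower in that comparison. After LPS 2 of the 3, Ccr2 and Fn1, were called lower, against 13.8% of all genes, and 0 higher, against 9.17%. The summed level of the 3 was 30.2, 28.5 and 24.3 in the order above. In the same order the summed level of 7 neutrophil markers was 70.2, 60.9 and 70.2. After LPS all 7 were below 0, and 5 were lower by at least 2-fold, against 13.8% of all genes. The part of these other cells in the results below was not tested. In sorted populations measured as a whole, fewer cells of a type and less RNA per cell cannot be told apart.

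Sequences near the start site, before or after it, are shown for some of the genes compared below. Their promoters can so be set beside the values. Except for Psmb9, each sequence shown holds a match to a searched motif, and called genes such as Psma6 and Psmd10 are not shown. The sequences come from RefSeq on GRCm38.p6, 5′ to 3′ on the strand of the gene, with matches to a searched motif in capitals. Psmb9 and Tap1, a peptide transporter gene, run in opposite directions on chromosome 17, and their start sites lie 226 bases apart. The 225 bases between them, chr17:34187331-34187555 on the minus strand, are shown because both genes read out from this stretch. For Psmb8, which lies beyond Tap1 on the plus strand, the 250 bases before the start are shown (chr17:34197945-34198194). It holds TTCNNNGAA, the palindromic core of a STAT dimer site, its first base at position -97 from the start. Psme1 (chr14:55578493-55578522, plus strand) and Psmg4 (chr13:34162969-34162998, plus strand) are shown around the core of an interferon-stimulated response element (GAAA, any 2 bases, GAAA). In these genes it begins at positions 10 and 16, counted from the start, on the minus strand in Psme1. Psmb5 (chr14:54618024-54618052, minus strand) and Psmb6 (chr11:70525338-70525366, plus strand), the standard counterparts of Psmb8 and Psmb9, are shown around TGACNNNGC, the core of an antioxidant response element, the kind of site that the proteasome gene activator Nfe2l1 binds.
Psmb9: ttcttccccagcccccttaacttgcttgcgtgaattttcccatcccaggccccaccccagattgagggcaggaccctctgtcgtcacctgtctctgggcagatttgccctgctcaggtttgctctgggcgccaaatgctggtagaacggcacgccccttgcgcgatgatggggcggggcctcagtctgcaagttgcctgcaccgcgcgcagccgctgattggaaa
Psmb8: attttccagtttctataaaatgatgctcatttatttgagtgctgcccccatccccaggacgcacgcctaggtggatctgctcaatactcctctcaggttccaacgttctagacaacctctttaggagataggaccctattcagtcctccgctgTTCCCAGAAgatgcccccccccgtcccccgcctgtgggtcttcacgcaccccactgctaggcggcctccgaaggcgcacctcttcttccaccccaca
Psme1: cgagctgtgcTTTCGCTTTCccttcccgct
Psmg4: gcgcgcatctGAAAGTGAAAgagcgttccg
Psmb5: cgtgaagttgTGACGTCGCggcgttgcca
Psmb6: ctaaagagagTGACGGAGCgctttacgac

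The motifs were searched on both strands in windows from 250 bases before to 50 bases after each start, of which 41 belong to 39 of the 47 genes and 32851 to all genes. The interferon response core was in 5 of the 41 windows (12.2%), those of Psmb3, Psmd4, Psmd9, Psme1 and Psmg4, against 3.44% of all windows. TTCNNNGAA was in 3 (7.32%), those of Psmb8, Psmd2 and Psmg1, against 8.30%. TGACNNNGC was in 6 (14.6%), those of Psmb5, Psmb6, Psmc6, Psmd9, Psmd12 and Psme4, against 12.4%. An NF-kB site was also in 6 (14.6%), those of Psma6, Psma7, Psmd11, Psmd12, Psmd13 and Psme4, against 8.46%. No searched motif was matched in the Psmb9 or Psmb10 window. A match describes these letters in the reference and no binding was measured.

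**Figure D1:**
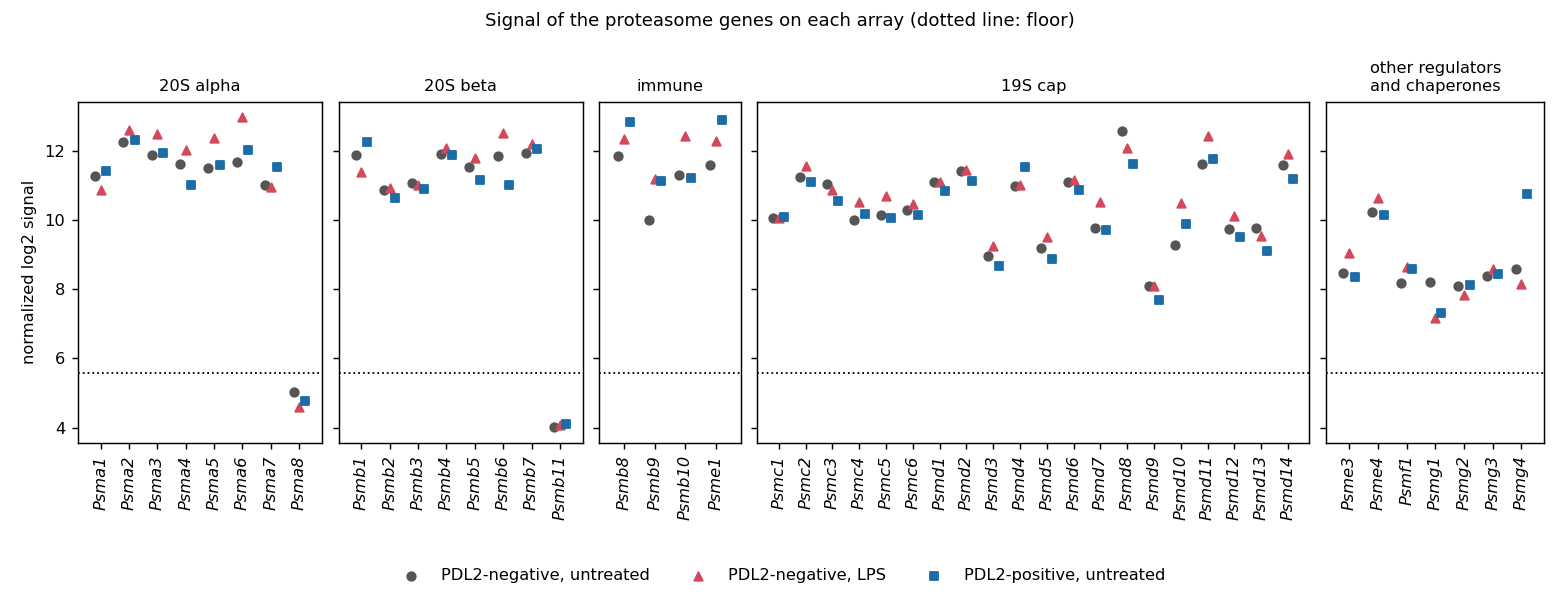
Each marker is 1 array, with the normalized log2 signal on the vertical axis and the proteasome genes in 5 panels by role. All genes lie above the floor of 5.58 (dotted line) on all 3 arrays except Psma8 and Psmb11, and Psmg4 stands out by its PDL2-positive value of 10.77.

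Of the 47 genes, 45 were above the floor on all 3 arrays. In PDL2-negative untreated cells these ran from 8.10 to 12.57 with a median of 11.05, where the median over the 11230 genes above the floor on at least 1 array was 8.01. Psma8, which encodes an alpha subunit of the testis proteasome, was below the floor throughout, at 5.03, 4.58 and 4.78 in PDL2-negative untreated, LPS-treated and PDL2-positive cells. So was Psmb11, the thymic epithelial catalytic subunit gene, at 4.02, 4.08 and 4.11. Neither is read further. The highest value of any proteasome gene was 12.98. None of the 47 probe sets used held an identical deposited value on all 3 arrays.

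The first comparison asks how the proteasome genes of PDL2-negative cells differed with LPS. Most were slightly higher on the LPS array, and few reached 2-fold. Of the 45 genes, 34 (75.6%) were above 0, against 51.7% of all genes tested. The median difference was 0.30 on the log2 scale, against 0.02 over the 11000 genes tested. Called higher were 4 of 45, the immune genes Psmb9 and Psmb10, the alpha subunit gene Psma6 and the assembly chaperone gene Psmd10, where 9.17% of all genes tested were called higher. Called lower was 1 of 45, the chaperone gene Psmg1, where 13.8% of all genes were. The share called higher was thus near the background. At 1.5-fold, 11 of 45 were higher, against 15.1% of all genes, and 1 was lower, against 24.6%.

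The immune genes were all higher on the LPS array, with a median log2 difference of 0.92. Psmb9, the immune counterpart of Psmb6, had log2 signals of 9.99 without treatment and 11.19 with LPS, a 2.29-fold difference. Psmb10, the counterpart of Psmb7, had 11.30 and 12.44, a 2.22-fold difference. Both differences exceed the spread between probe sets, although each gene has 1 probe set. Psme1 had 11.60 and 12.29, a 1.61-fold difference. For Psmb8, the counterpart of Psmb5, the signals were 11.86 and 12.35, a difference of 0.49 that did not reach 2-fold. A dimmer probe set of Psmb8 gave 0.92 (5.69 and 6.61), close to the floor without treatment.

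Of the standard catalytic genes, only Psmb6 differed with LPS by more than the spread between probe sets, by 0.66 (11.86 and 12.52), and none reached 2-fold. The log2 difference was 0.26 both for Psmb5 (11.55 and 11.82) and for Psmb7 (11.95 and 12.21), within that spread. Within each pair the immune gene gained on the standard gene after LPS. The gain was 0.23 on the log2 scale for Psmb8 over Psmb5, less than the spread, 0.53 for Psmb9 over Psmb6 and 0.88 for Psmb10 over Psmb7. A gain combines the errors of 2 genes, so its own spread is wider than that of 1 gene and was not computed. The other standard beta genes ran from -0.49 for Psmb1 (11.89 and 11.40) to 0.17 for Psmb4, and the median of the 7 was 0.17. Other probe sets of Psmb1 gave differences of up to 0.15, the opposite direction.

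Among the 7 alpha genes above the floor the median log2 difference was 0.40 after LPS, with 5 above 0. Psma6 had 11.70 without treatment and 12.98 with LPS, the largest difference of any proteasome gene in this comparison (2.44-fold). Its 3 probe sets above the floor gave 1.23 to 1.29. Psma5 followed at 0.89 (11.50 and 12.39), with a second probe set at 1.05, and Psma3 at 0.60. At the low end was Psma1, at -0.41 (11.29 and 10.88), although its second probe set above the floor gave 0.41. The alpha subunit genes, whose products form the gate of the core, thus shared no common difference.

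The 20 genes named for the 19S cap had a median log2 difference of 0.24 after LPS, and 16 were above 0. The 6 Psmc genes, which encode the ATPases that unfold the substrate, ran from -0.17 (Psmc3) to 0.54 (Psmc5). Psmd10 encodes gankyrin, an assembly chaperone of the cap rather than a lasting subunit. Its signals were 9.29 without treatment and 10.49 with LPS (2.30-fold, 1 probe set). Psmd11, a scaffold subunit gene, differed by 0.80 (11.62 and 12.43), and its 6 probe sets above the floor ran from 0.32 to 0.96. Psmd7, the partner of the deubiquitinase gene Psmd14, differed by 0.74 (9.78 and 10.52). Psmd14 itself differed by 0.32. At the low end was the lid subunit gene Psmd8, at -0.48 (12.57 and 12.09).

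The 7 genes outside the core and cap went both ways after LPS. Psmg1 and Psmg2 encode a chaperone pair that starts the alpha ring. Psmg1 had 8.20 without treatment and 7.18 with LPS, 2.03-fold lower, and under a floor set at the 75th percentile its difference was -0.40 and the call was lost. Psmg2 differed by -0.25, with a second probe set at -0.75. The second chaperone pair differed by 0.21 (Psmg3) and -0.44 (Psmg4). Psme3 (PA28 gamma, a nuclear cap) was at 0.59, but its second probe set above the floor gave 0.21 and averaged probe sets gave 0.26. Psme4 (PA200, another nuclear cap) was at 0.41. Psmf1, which encodes the inhibitor PI31, was at 0.46, but its 2 other probe sets above the floor gave -0.10 and -0.21.

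**Figure D2:**
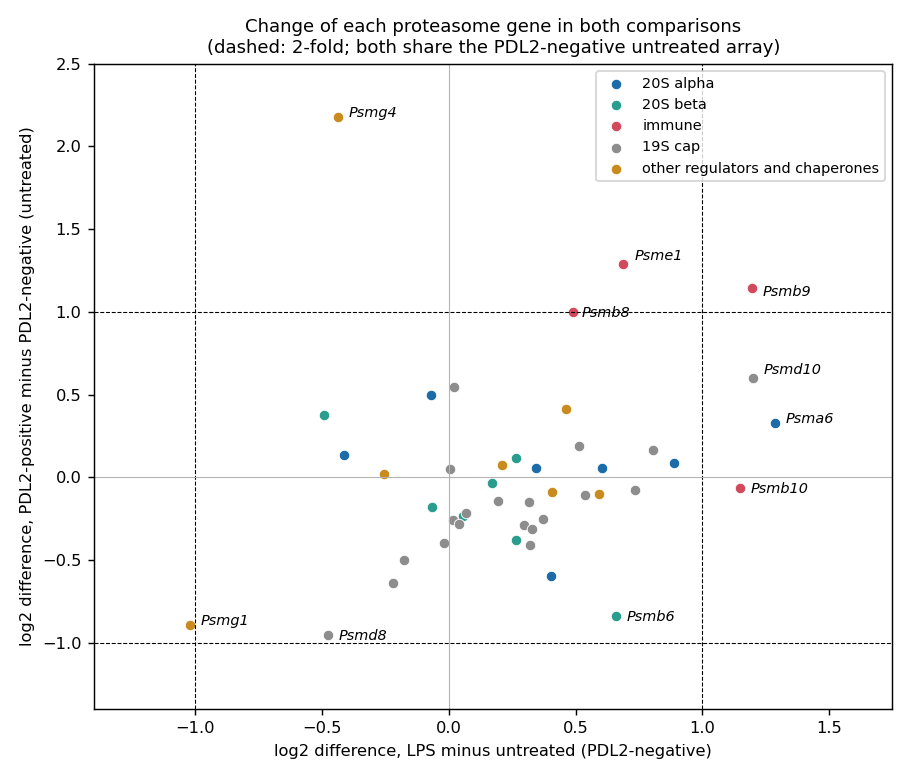
Each point is 1 of the 45 proteasome genes above the floor, with the log2 difference after LPS on the horizontal axis and that of PDL2-positive against PDL2-negative untreated cells on the vertical axis. Both axes use the PDL2-negative untreated array, so the points show values side by side and no relation is read from them; Psmb9 is the 1 gene beyond the 2-fold line on both.

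The second comparison sets PDL2-positive against PDL2-negative untreated cells. Immune genes other than Psmb10 were higher in PDL2-positive cells, Psmg4 was higher still, and most standard core and cap genes differed little. Of the 45 genes, 20 (44.4%) were above 0, against 53.0% of all genes tested. The median log2 difference over the 45 genes was -0.08, against 0.01 over 10926 genes tested. With the mean over all probe sets of a gene the median was 0.02, so it has no settled direction. Called higher were 3 of 45, Psmg4, Psme1 and Psmb9, where 10.1% of all genes were called higher. Called lower were 0 of 45, where 13.0% of all genes were. With 1 array per group no count at an unadjusted p exists. At 1.5-fold, 5 were higher and 5 lower, against 17.7% and 20.4% of all genes.

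The 4 immune genes differed from each other in this comparison. Psme1 had 11.60 in PDL2-negative and 12.89 in PDL2-positive cells, 2.45-fold higher. Psmb9 had 9.99 and 11.14, 2.21-fold higher. Psmb8 had 11.86 and 12.86, and its difference of 0.999 fell just short of 2-fold. Its second probe set gave 1.21, but in PDL2-negative untreated cells that set was at 5.69, close to the floor. Psmb8 was called with the deposited values and with median centring. It was also called with averaged probe sets, an average that includes this dimmer set. Psmb10, by contrast, had 11.30 and 11.23, a difference of -0.06 that lies within the spread between probe sets. The immune median was 1.07.

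The standard counterparts of Psmb8 and Psmb9 were lower in PDL2-positive cells, though short of 2-fold. Psmb6 had 11.86 in PDL2-negative and 11.02 in PDL2-positive cells, 1.79-fold lower. Psmb5 had 11.55 and 11.17, 1.30-fold lower. Psmb7 had 11.95 and 12.06, a difference of 0.12 within the spread. The immune gene therefore gained on the standard gene by 1.38 on the log2 scale for Psmb8 over Psmb5, a 2.60-fold shift in their ratio. The gain was 1.98 for Psmb9 over Psmb6, a 3.94-fold shift. For Psmb10 over Psmb7 it was -0.18. In this comparison 2 of the 3 pairs shifted towards the immune gene by over 2-fold, and after LPS none of the 3 did. Whether these shifts differ beyond the variation between cultures was not tested, as there is 1 array per group. A ratio of signals shows unequal change and not how much of each protein was present.

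**Figure D3:**
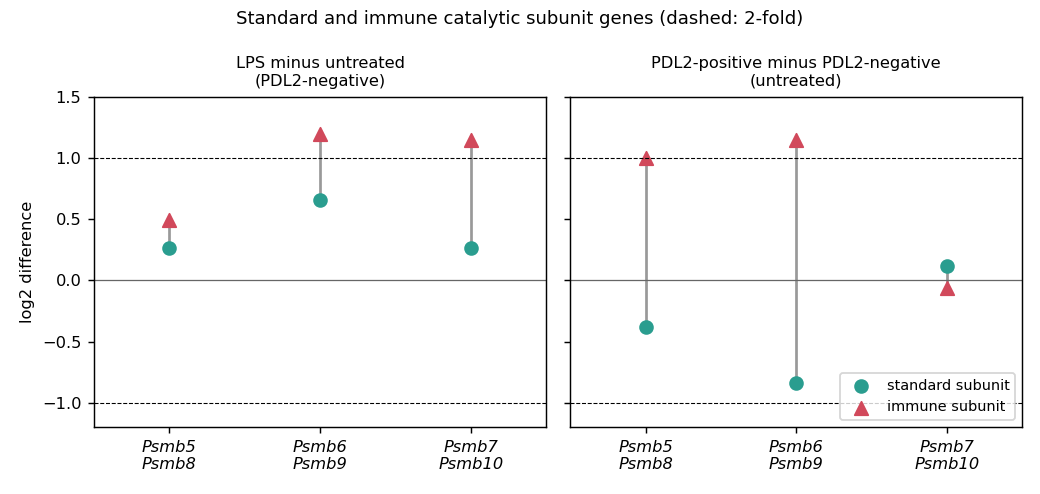
For each catalytic position the circle is the log2 difference of the standard gene and the triangle that of the immune gene, after LPS (left) and in PDL2-positive against PDL2-negative untreated cells (right), with 1 array per group. The gap between them is largest for Psmb6 and Psmb9 on the right (1.98) and turns over for Psmb7 and Psmb10 on the right (-0.18).

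By their brightest probe sets, the standard core genes otherwise differed little between the untreated populations. The alpha genes above the floor ran from -0.60 for Psma4 (11.63 in PDL2-negative and 11.03 in PDL2-positive cells) to 0.50 for Psma7 (11.03 and 11.53). A second probe set of Psma7 gave 0.58. For Psma1 and Psma3 the brightest probe sets gave 0.13 and 0.06. Their dimmer probe sets above the floor gave 1.19 (6.73 and 7.92) and 0.85 (6.04 and 6.88). The alpha median was 0.09, and 0.27 with averaged probe sets. The beta median was -0.18, and Psmb1 was highest, at 0.38 (11.89 and 12.27).

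The 19S genes had a median of -0.24 in PDL2-positive cells, with 5 of 20 above 0, and with averaged probe sets the median was -0.09. Psmd8 was lowest, at 12.57 in PDL2-negative and 11.62 in PDL2-positive cells, a 1.93-fold difference from 1 probe set. Psmd13, a lid subunit gene, differed by -0.64 (9.76 and 9.12), and its second probe set by -0.29. The highest were Psmd10, at 0.60 (9.29 and 9.89), and the ubiquitin receptor gene Psmd4, at 0.54 (11.01 and 11.55). The 3 probe sets of Psmd4 ran from 0.04 to 0.68. The 6 ATPase genes ran from -0.50 (Psmc3) to 0.19 (Psmc4).

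By its brightest probe set, Psmg4 showed the largest difference of all proteasome genes. It encodes a chaperone that, with the Psmg3 product, helps to build the alpha ring. Its log2 signals were 8.60 in PDL2-negative untreated, 8.16 in LPS-treated and 10.77 in PDL2-positive cells, so that PDL2-positive cells were 4.52-fold above PDL2-negative untreated cells. Its partner Psmg3 was at 8.37, 8.58 and 8.45 and did not follow it. The value rests on 1 probe set, since the other Psmg4 probe set was below the floor on all arrays (3.83, 3.77 and 4.08). With averaged probe sets the log2 difference was 1.22 in place of 2.18, below the 1.29 of Psme1, and against LPS-treated cells it was 1.46 in place of 2.61. Slc22a23, a transporter-like gene, is the next protein-coding gene in RefSeq order and lies on the opposite strand, so that both genes end towards each other. It was below the floor at 5.12 and 5.56 in PDL2-negative untreated and LPS-treated cells and at 10.88 in PDL2-positive cells, at least 39.3-fold higher. Slc22a23 was looked up after the Psmg4 values were seen, and its part in the Psmg4 signal was not tested.

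Among the other regulators, Psmg1 was at 8.20 in PDL2-negative and 7.31 in PDL2-positive cells, 1.86-fold lower, and Psmg2 differed by 0.02. Psme3 and Psme4 differed by -0.10 and -0.09, both within the spread between probe sets. Psmf1 differed by 0.42 by its brightest probe set, while the other 2 above the floor gave 1.07 and 1.19. The direction was shared by the 3 probe sets and the size was not.

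The third comparison sets untreated PDL2-positive cells beside the PDL2-negative cells given LPS, and shares an array with each of the others. Of 45 genes, 35 were below 0, where 5922 of the 11042 genes tested were. The median was -0.32, against -0.05 over all genes tested. Called lower were 3 of 45, Psmb6, Psmb10 and Psma4, where 12.6% of all genes were, and called higher was 1, Psmg4, where 15.6% were. At 1.5-fold, 15 were lower, against 18.5% of all genes, and 3 were higher, against 25.0%. The medians were -0.55 for alpha, -0.20 for beta, -0.44 for 19S and 0.23 for immune genes. With averaged probe sets the alpha median was -0.29.

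Psmb6 separated these populations most among the genes that were lower in PDL2-positive cells, at 12.52 with LPS and 11.02 in PDL2-positive cells (2.82-fold). Psmb10 was at 12.44 and 11.23 (2.31-fold). Psma4, at 12.03 and 11.03, reached the 2-fold threshold by a narrow margin. Psma6, at 12.98 and 12.02, lay just outside it (-0.96). Psma6 was called lower with the deposited values and with median centring (-1.03), which made 4 of 45. Psmb9 was at 11.19 and 11.14 and differed by less than the spread between probe sets. Psme1 (12.29 and 12.89) and Psmb8 (12.35 and 12.86) were higher in PDL2-positive cells by 0.60 and 0.51. Psmb1 was also higher there, by 0.87 (11.40 and 12.27), but its other probe sets did not all share that direction and averaged probe sets gave 0.29.

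**Figure D4:**
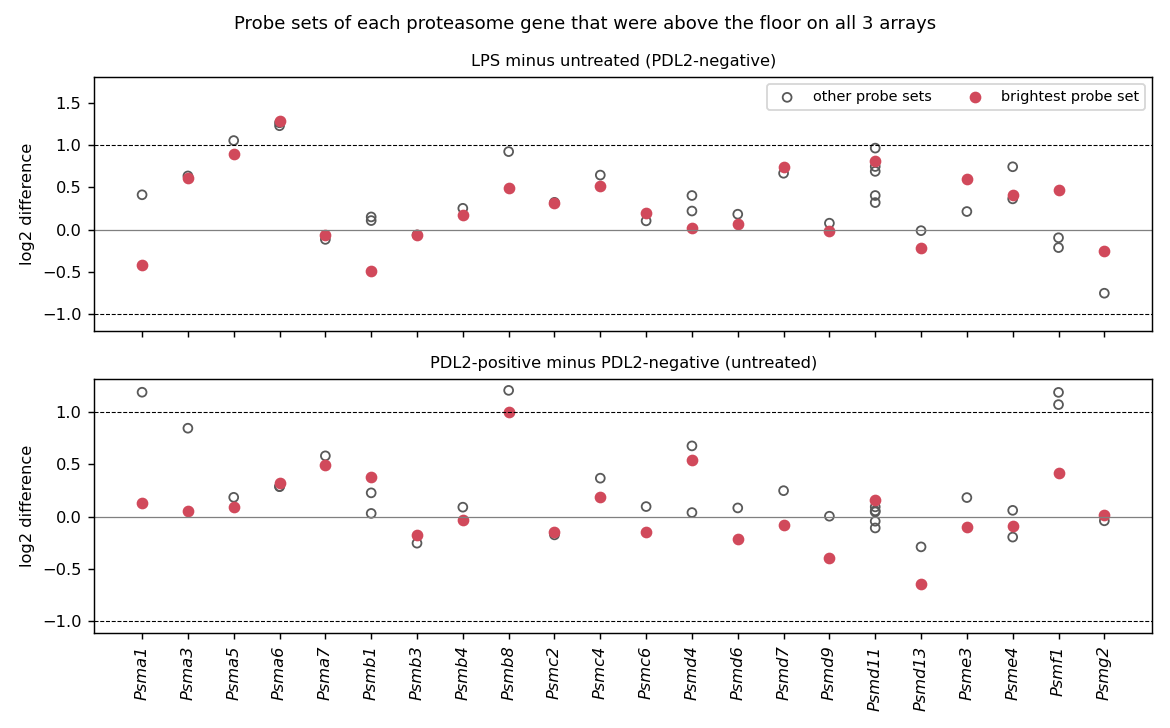
For the 22 proteasome genes with 2 or more probe sets above the floor on all 3 arrays, the log2 difference is shown for the brightest probe set (filled) and the others (open), after LPS (top) and for PDL2-positive against PDL2-negative untreated cells (bottom). The probe sets of Psma6 lie together, at 1.23 to 1.29 after LPS, while those of Psma1 and Psmf1 lie apart in both panels.

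Probe sets gave a technical check on direction. Of the 22 genes with at least 2 probe sets above the floor, all probe sets shared the direction of the brightest in 18 genes after LPS, 13 genes in the PDL2 comparison and 18 genes in the third. The genes that disagreed after LPS were Psma1, Psmb1, Psmd9 and Psmf1. In the PDL2 comparison the 9 genes that disagreed had brightest-probe differences from -0.40 (Psmd9) to 0.16 (Psmd11). The other 25 of the 47 genes had no such check, among them Psmb9, Psmb10, Psme1, Psmb6, Psmd10 and Psmg4.

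Of 13 partners of the proteasome outside these names, 9 had a probe set naming no other gene. After LPS 2 were lower, the deubiquitinase gene Uchl5 (9.42 and 8.36) and the shuttle factor gene Ubqln2 (10.72 and 9.65), and 0 were higher, against 9.17% of all genes. The lower genes are 22.2% of the 9, against 13.8% of all genes. In PDL2-positive cells 1 was higher (11.1%, against 10.1%), Ubqln2 (11.73), and 0 were lower (against 13.0%). A second probe set of Ubqln2 gave 0.09 and 0.01 in these comparisons. Ecpas was not called by its brightest probe set (0.55 and 0.93). Its 4 probe sets above the floor ran from -0.14 to 1.53 after LPS and from 0.73 to 1.79 in PDL2-positive cells. Pomp, the maturation factor of the core, was at 12.18, 12.02 and 12.08 in PDL2-negative untreated, LPS-treated and PDL2-positive cells and differed by less than the spread between probe sets.

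Regulators of proteasome gene transcription were listed as 5 genes, of which 4 were measured. By the brightest probe set of each gene, 0 of 4 were called after LPS, where 9.17% of all genes were higher and 13.8% lower. Against PDL2-negative cells, 0 of 4 were lower in PDL2-positive cells (13.0% of all genes) and 1 was higher (10.1%), Nfe2l1, an activator of proteasome genes when proteasome activity is low. Its signals were 9.01, 9.54 and 10.73 in the same order, from 1 probe set. The PDL2-positive array was 3.28-fold above the untreated PDL2-negative array. The 19S and standard beta medians in that comparison were -0.24 and -0.18. Nfe2l2, its relative in the oxidative stress response, was at 11.99, 12.28 and 11.41, and its 2 probe sets went opposite ways. They gave 0.29 and -2.33 after LPS, so the Nfe2l2 result after LPS depends on the probe set. For Vcp, also on the list, the brightest probe set gave 0.09 after LPS and the other 1.16. In PDL2-positive against PDL2-negative untreated cells these gave 0.35 and 1.43.

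The interferon pathway is known to induce immune subunits. Of 12 listed, 10 were tested, and after LPS 6 were higher, against 9.17% of all genes, and 1 lower, against 13.8%, with a median of 1.39. The 6 were Irf1, Irf7, Irf9, Nlrc5, Stat2 and Ifnar1. Irf1, a factor that activates immune subunit genes, was at 8.86, 11.48 and 10.31 in PDL2-negative untreated, LPS-treated and PDL2-positive cells. Nlrc5, the transactivator of MHC class I genes, was at 7.52, 11.17 and 9.56. Both were thus higher in LPS-treated and in PDL2-positive cells, by 2.62 and 1.45 (Irf1) and by 3.65 and 2.04 (Nlrc5). Irf7, an interferon-induced factor, was at 8.06, 12.42 and 6.88, and Stat2, a transducer of type I interferon signals, at 6.70, 10.20 and 6.82. They were high on the LPS array alone. In PDL2-positive cells 3 of the 10 were higher, Irf1, Irf8 and Nlrc5, against 10.1% of all genes. Lower were 2, Irf7 and Ifngr1, against 13.0%, and the median was 0.03. Irf8 was at 10.95, 11.33 and 13.35. Ifngr1, an interferon gamma receptor chain gene, was at 11.21, 9.04 and 8.81, and Ifnb1 was below the floor throughout.

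The MHC class I peptide route that the immunoproteasome feeds was listed as 11 genes, of which 10 were tested. After LPS 3 of the 10 were higher, against 9.17% of all genes, and 0 lower, against 13.8%. The 3 were Tap2, the transporter gene next to Psmb8 (8.76 and 10.56), Tapbp (12.17 and 13.30) and Tapbpl (7.54 and 9.89), which encode peptide-loading factors. In PDL2-positive cells 1 of the 10 was higher, Tapbpl (10.09), against 10.1% of all genes. Lower were 2 of the 10, against 13.0%, the chaperone genes Calr (12.61 in PDL2-negative and 11.34 in PDL2-positive cells) and Pdia3 (12.71 and 11.66). Tap2 was at 9.16 in PDL2-positive cells, a difference of 0.40, where Psmb9 and Psmb8 in the same gene cluster differed by 1.14 and 0.999. The Tap1 probe set used was below the floor on all arrays, so the partner of Psmb9 across the shared promoter could not be read. Of 9 ubiquitin supply genes, 2 were tested. Uba7, the activating enzyme of the ubiquitin-like ISG15, was at 8.75, 11.26 and 10.32 in the same order of groups. Uba6 was at 7.95, 8.77 and 7.60.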

How the data were processed

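The authors deposited log2 values, 1 for each probe set on each array; the scale was read from the values. The background correction, scaling and summary method are not given in the sources used here. Control probe sets (13) were dropped, and the remaining 38533 were quantile-normalized, because the deposited 75th percentiles ran from 7.68 to 7.90. Of the annotated probe sets, 33987 name 1 gene and 449 name several and were used for no gene. Symbols were updated through the Entrez number, which changed no proteasome symbol. Each gene was read by its brightest probe set on average; the 47 genes have 99 probe sets in all. Values below the floor (the median, 5.58) were raised to it, and a gene was tested if above it on either array. The number of arrays limits the precision.

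Genes named in the text are the immune genes and the standard catalytic genes they replace, every gene called at 2-fold, the highest and lowest of each role, genes at the floor, the other regulators, and called genes of the 5 related lists. Further proteasome genes were named after their values were seen. Members, lists and rules were chosen with earlier results of these data known. Scripts used Python 3.11.15, numpy 2.4.6 and pandas 2.3.3, and the calling was tested on simulated data. The planted changes were well above 2-fold, so the recovery of differences near that threshold was not covered. Alternatives were other normalizations, floors, probe set rules and size thresholds.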

Additional observations from a re-analysis of the deposited data

How the results depend on the processing

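The counts depended on the size threshold. At 1.5-fold, 11 genes were higher after LPS, 5 were higher and 5 lower in PDL2-positive against PDL2-negative cells, and 3 were higher and 15 lower in PDL2-positive against LPS-treated cells. At 3-fold, 0 were higher and 0 lower after LPS, 1 was higher in the PDL2 comparison and 0 were lower in the third. With the floor at the 75th percentile 0 genes were lower after LPS, since Psmg1 then lay close to the floor. Every other count, and the median of each role in each comparison, stayed within 1.5 times or within the spread between probe sets under the alternatives run. With the deposited values the median over all genes after LPS was -0.09 in place of 0.02, and that over the proteasome genes 0.27 in place of 0.30. Of 413 values of single named genes under an alternative, 16 moved by more than that spread and 0 called genes changed sign. No paired analysis was possible because each group has 1 array, and no array could be left out.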

Other observations

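Other genes around Psmg4 in RefSeq order were looked up after its values were seen. Tubb2b, a tubulin gene before it, was below the floor at 3.89 and 4.09 in PDL2-negative untreated and LPS-treated cells and at 7.85 in PDL2-positive cells. Pxdc1, the protein-coding gene after Slc22a23, was at 8.56, 7.18 and 9.96 in the same order. Tubb2a, the tubulin gene before Tubb2b, was at 10.30, 9.71 and 10.35 and did not differ by 2-fold. Around Psmb10, Ctrl before it was at 6.12, 6.76 and 6.34, Lcat after it was below the floor throughout, and Slc12a4, a transporter gene after Lcat, was at 7.29, 8.35 and 7.20. Directly after Psma6, the NF-kB inhibitor gene Nfkbia was at 12.80, 14.07 and 13.46. Before Psma6, Prorp was at 6.69, 6.72 and 6.38 and Ppp2r3c at 9.64, 9.77 and 9.98. These 2 genes differed after LPS by only 0.03 and 0.13 on the log2 scale. Genes around Psmb8, Psmb9, Psme1, Psmg1 and Psmd10 were also looked up and are not listed here. No relation between neighbours was tested.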
